A study of Mus musculus with 68 samples.

Results

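The response of the C57BL/6J mouse lung to inhaled 1,3-butadiene (BD) was read from its RNA-seq libraries, which are 11 of the 68 samples of the series. They comprise 6 libraries of mice that breathed BD and 5 of mice that breathed clean air, and they were chosen as every RNA-seq library whose label gives this strain. All animals were wild-type males of the inbred strain C57BL/6J, bought from a commercial breeder, and whole lung was the labelled tissue. BD was given for 6 hours on each weekday over 2 weeks. The concentration of BD and the age of the mice are not given in the sources used here. The design text of the series asks how gene expression and open chromatin of the lung differ between C57BL/6J and the wild-derived strain CAST/EiJ, and how both respond to BD. The 13 CAST/EiJ RNA-seq libraries entered 1 comparison, given last.

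BD is a gas of rubber manufacture and tobacco smoke that is classed as a human carcinogen. Cytochrome P450 enzymes, Cyp2e1 foremost, oxidise it to epoxides that bind DNA. Microsomal epoxide hydrolase (Ephx1) opens these epoxides with water, and glutathione S-transferases join them to the tripeptide glutathione. When electrophiles modify the sensor KEAP1, the transcription factor NRF2 (gene Nfe2l2) accumulates and binds antioxidant response elements beside genes that make glutathione, reduce thioredoxin and conjugate reactive molecules. DNA damage acts on many genes through p53, and the glucocorticoid receptor, a steroid hormone receptor, acts through elements of its own.

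Promoter sequence is shown for 5 genes that rose under BD, because these windows hold the letters of one of those elements. The first 3 encode thioredoxin reductase (Txnrd1), a glutathione S-transferase (Gsta3) and gamma-glutamyltransferase (Ggt1), and their capitals mark the core of the antioxidant response element, TGACNNNGC, on either strand.
Txnrd1: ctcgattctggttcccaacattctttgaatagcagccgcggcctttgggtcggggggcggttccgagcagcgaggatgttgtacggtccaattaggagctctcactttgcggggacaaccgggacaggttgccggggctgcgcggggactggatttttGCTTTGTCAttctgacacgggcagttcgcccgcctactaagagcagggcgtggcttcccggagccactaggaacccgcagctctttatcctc
Gsta3: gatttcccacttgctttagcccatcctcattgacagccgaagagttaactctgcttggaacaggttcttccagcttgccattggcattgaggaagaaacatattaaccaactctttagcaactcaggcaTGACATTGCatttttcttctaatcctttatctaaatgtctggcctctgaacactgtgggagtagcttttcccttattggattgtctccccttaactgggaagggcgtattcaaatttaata
Ggt1: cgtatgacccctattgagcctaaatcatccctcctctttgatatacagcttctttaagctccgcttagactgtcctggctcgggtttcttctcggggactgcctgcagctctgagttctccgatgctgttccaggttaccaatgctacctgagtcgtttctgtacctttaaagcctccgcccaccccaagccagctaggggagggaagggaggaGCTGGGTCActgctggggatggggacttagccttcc
In Fam107a, a gene induced by glucocorticoids, and Mt1, a metallothionein, the capitals mark GNACANNNTGTNC, a palindromic pattern of the glucocorticoid response element that reads on both strands.
Fam107a: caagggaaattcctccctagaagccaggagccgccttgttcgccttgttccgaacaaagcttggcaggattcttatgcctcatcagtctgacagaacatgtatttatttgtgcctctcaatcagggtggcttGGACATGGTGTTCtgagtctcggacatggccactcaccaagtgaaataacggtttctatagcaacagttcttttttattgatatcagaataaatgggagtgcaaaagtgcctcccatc
Mt1: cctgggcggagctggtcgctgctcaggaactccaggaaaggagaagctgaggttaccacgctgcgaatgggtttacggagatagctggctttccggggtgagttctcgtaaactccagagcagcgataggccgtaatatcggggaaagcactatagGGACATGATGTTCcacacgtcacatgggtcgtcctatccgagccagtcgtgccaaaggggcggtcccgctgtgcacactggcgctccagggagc
Each run gives the 250 bases before a listed gene start, 5′ to 3′ on the gene's strand, from RefSeq on GRCm38.p6, which differs from the build used for the counts. The windows are chr10:82858956-82859205 (plus strand), chr1:21240335-21240584 (plus), chr10:75568412-75568661 (plus), chr14:8309780-8310029 (minus) and chr8:94178839-94179088 (plus). The marked sites began 92, 121, 36, 118 and 94 bases before the start. For Txnrd1, Ggt1 and Fam107a, which have 3, 4 and 3 starts in the table, the first start with a match is shown. Over the promoter windows in the table, 12.4% of 32851 held the first pattern and 0.475% held the second, on either strand. Those windows are longer than the runs printed here, since they also hold bases after the start. A match describes the letters and is not a measurement of binding. Mt1 was picked for display after its values were seen.

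Libraries held 10601756–37529979 counts. Levels are given per 1000000 counts (CPM), scaled by the trimmed mean of M-values (TMM), so they compare libraries for 1 gene and not the amounts of different genes. The surfactant gene Sftpc, which defines alveolar type 2 cells, was at 6764–9970 CPM in clean air and 9468–12921 CPM under BD, and was thus abundant in every library. Markers of squamous epithelium, which is not part of the lung's gas exchange tissue, summed to 1909 CPM in clean-air replicate 1, 1313 in BD replicate 1, 933 in BD replicate 5, 152 in BD replicate 2 and 44.3–64.7 in the other 7 libraries, with Krt4, Krt13 and Sprr3 on the list. Hepatocyte markers summed to 41.0–542 CPM in clean air and 16.03–169 CPM under BD. Clean-air replicate 1 carries a title number over 100, as no other C57BL/6J library does, and on the first principal component (32.2% of the variance) it stood at -10.3, within the BD range of -39.1 to -4.37, while clean-air replicates 2 to 5 stood at 13.8 to 35.7. Counts over all genes, and list counts that it moves, are therefore given also without it. The labels do not say that each library is a different mouse, so p-values measure the spread between these libraries, which may be partly technical.

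BD changed 2430 of 16717 tested genes (14.5%) at an adjusted p under 0.05 in edgeR's quasi-likelihood test with Benjamini-Hochberg adjustment. Of these, 1019 genes (6.1% of those tested) rose and 1411 (8.44%) fell. Most changes were small, with 67.0% of the calls under 1.5-fold. A change of at least 2-fold was reached by 64 genes that rose (0.383%) and 132 that fell (0.79%). Every BD library lay above every clean-air library for 672 genes (4.02%) and below for 693 (4.15%). The median log2 fold over all tested genes was 0.004. The highest folds among genes with separated groups belonged to Cyp1a1, Fam107a, Fkbp5, Gdf15 and Ces1g, and the lowest to Egr1, Pou2f2, Nr4a1, Nr1d1 and Klhl14.

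**Figure D1:**
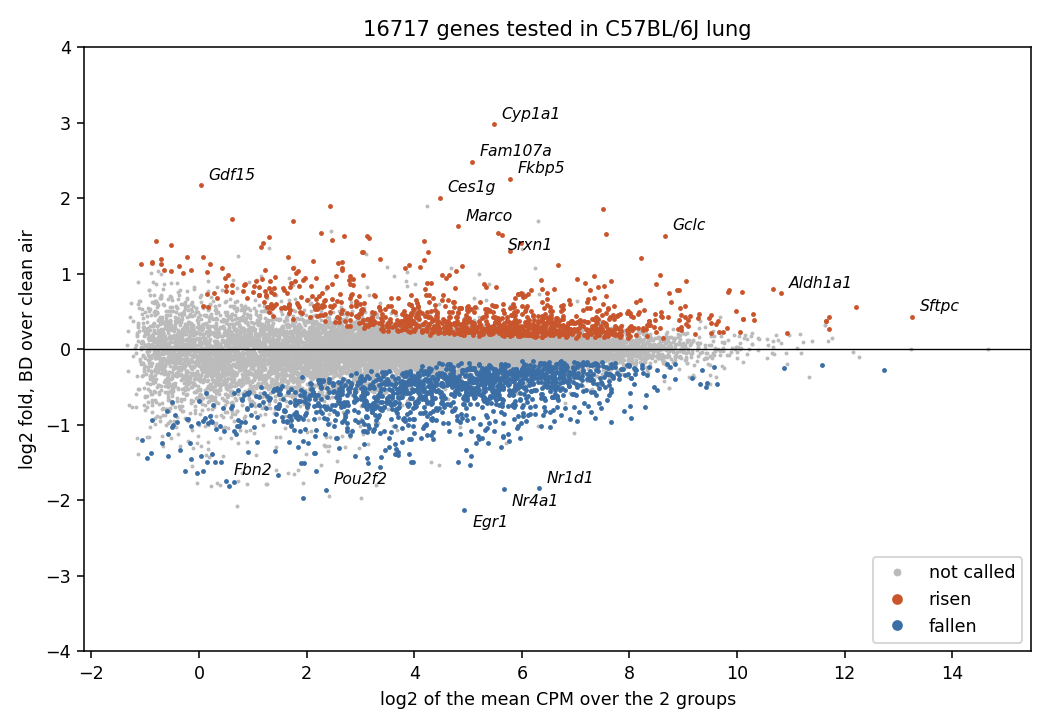
Each point is 1 of 16717 genes, with the log2 of its mean CPM over both groups on the x axis and its log2 fold, BD over clean air, on the y axis. Orange points rose (1019), blue points fell (1411) and grey points did not pass; Cyp1a1 and Fam107a stand highest and Egr1 stands lowest among the labelled genes.

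Without clean-air replicate 1, 3573 of 16801 tested genes passed (21.3%), 1450 of them higher (8.63%) and 2123 lower (12.6%). The 2 sets share 2244 genes, which are 92.3% of the 2430 and 62.8% of the 3573, and all 2244 had the same sign. Without that library and BD replicates 1 and 5, the 3 with the highest squamous markers, 2670 of 16552 genes passed (16.1%), of which 1934 were among the 2430. The count also rested on clean-air replicate 3, the library with the fewest counts: 1476 genes passed without it, 1443 of them among the 2430. That library was the highest of the 5 clean-air libraries for 50.8% of the genes that fell, against 25.1% of all tested genes, and clean-air replicate 1 was the lowest for 51.0%, against 30.3%. Leaving out BD replicates 3 and 4 in turn gave 1572 and 1580 genes.

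**Figure D2:**
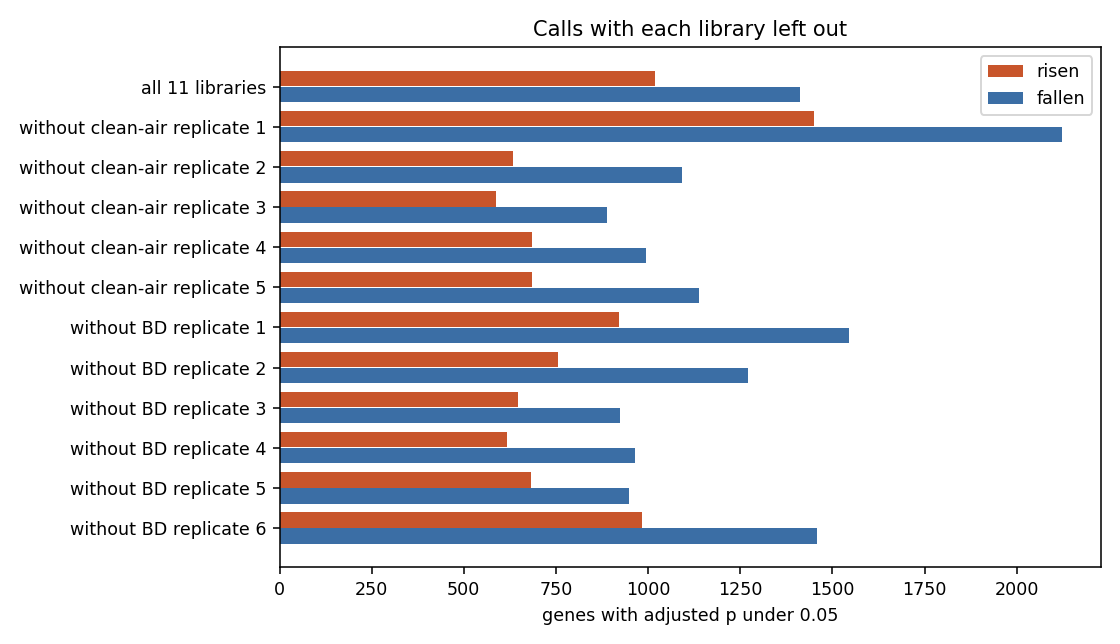
Bars give the genes with an adjusted p under 0.05 that rose (orange) and fell (blue) with all 11 libraries and with each library left out in turn. The counts were highest without clean-air replicate 1 (1450 and 2123) and lowest without clean-air replicate 3 (588 and 888).

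Genes of glutathione synthesis and thioredoxin reduction rose under BD. Srxn1, whose product sulfiredoxin repairs over-oxidised peroxiredoxins, stood at 25.8, 24.5, 22.2, 21.4 and 25.7 CPM in clean-air replicates 1 to 5, and its lowest, median and highest BD values were 63.2, 69.0 and 79.6 CPM. It rose 2.91-fold (log2 fold 1.54, SE 0.08, adjusted p = 1.50e-07), the smallest p of the named genes. Gclc, the catalytic subunit of the enzyme that limits glutathione synthesis, stood at 244, 204, 192, 193 and 221 CPM in clean air and at 458, 601 and 690 CPM under BD. It rose 2.83-fold (log2 fold 1.502, SE 0.10, adjusted p = 5.31e-06). In both genes the lowest BD library was above the highest clean-air library, which was clean-air replicate 1.

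The list of glutathione synthesis and cystine uptake had 14 tested members, of which 8 rose, none fell and 6 did not pass, with a median log2 fold of 0.37. The risen share was 57.1% with and without clean-air replicate 1, against 6.1% and 8.63% of all tested genes. The 8 were Gclc, Slc7a11, Ggt1, Chac1, Gclm, Cth, Gss and Gsr. They are not all synthesis genes, since Ggt1 and Chac1 act in the breakdown of glutathione. Ggt1, which starts the breakdown of glutathione outside the cell, rose 2.01-fold (adjusted p = 0.00217), from 1.67–2.80 CPM in clean air to 3.43–5.38 CPM under BD. Slc7a11, the cystine importer, rose 2.10-fold (adjusted p = 0.0368) with overlapping groups: clean air held 14.4, 6.64, 8.21, 8.09 and 8.06 CPM and BD 12.7, 15.6 and 37.1. Its highest clean-air value was that of replicate 1, the library with the most squamous marker RNA, and the part of that RNA in the value was not tested. Without that library its adjusted p was 0.0152, and it passed in 11 of 19 alternative analyses.

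Among 16 thioredoxin, peroxiredoxin and sulfiredoxin genes, Srxn1, Txnrd1, Prdx6, Txn1 and Prdx3 rose and Sesn3 fell, with a list median of 0.19, and without clean-air replicate 1 there were 8 that rose. These risen shares were 31.25% and 50%, against 6.1% and 8.63% of all tested genes. Txnrd1, whose promoter is printed above, was at 109, 97.4, 101.2, 93.1 and 104.3 CPM in clean air and 167, 188 and 203 CPM under BD. It rose 1.84-fold (log2 fold 0.88, SE 0.06, adjusted p = 6.47e-06) with groups that did not overlap. Prdx6, a peroxiredoxin that reduces phospholipid hydroperoxides, rose 1.69-fold (adjusted p = 0.00113), from 683–954 CPM in clean air to 1064–1607 CPM under BD. Sesn3, a sestrin, fell 1.31-fold (adjusted p = 0.00509), from 25.4–28.9 CPM in clean air to 18.9–24.4 CPM under BD.

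Of 11 genes of quinone, haem and iron handling that NRF2 is known to act on, Nqo1, Abcb6, Blvrb, Hmox1, Ftl1, Slc48a1 and Fech rose and none fell (median log2 fold 0.27). The risen share was 63.6% with and without clean-air replicate 1, against 6.1% and 8.63% of all tested genes. Nqo1, the quinone reductase, stood at 11.3, 10.9, 9.61, 7.51 and 9.69 CPM in clean air and 23.5, 26.2 and 32.9 CPM under BD, with no overlap. It rose 2.71-fold (log2 fold 1.44, SE 0.12, adjusted p = 2.77e-05). Abcb6, a porphyrin transporter, rose 1.57-fold (adjusted p = 0.000205), and Blvrb, a biliverdin reductase, rose 1.54-fold (adjusted p = 0.00454). Enzymes that supply NADPH, the electron donor for these reactions, rose in 5 of 13 cases (Idh2, Idh1, Taldo1, G6pdx and H6pd, and 6 without clean-air replicate 1) with smaller sizes, Idh2 by 1.29-fold (adjusted p = 0.00381). These risen shares were 38.5% and 46.2%, against 6.1% and 8.63% of all tested genes. Of 10 peroxidases, superoxide dismutases and catalase, Gpx2, Sod2 and Cat passed as higher (30%, against 6.1% of all tested genes). Without clean-air replicate 1, 4 did (40%, against 8.63%). Gpx2 lost its call in 6, Sod2 in 13 and Cat in 15 of 19 alternative analyses. Gpx2, an epithelial glutathione peroxidase, was at 19.3, 10.3, 9.99, 8.09 and 9.39 CPM in clean air and 17.1, 18.8 and 22.9 CPM under BD, so that clean-air replicate 1, with its squamous markers, lay inside the BD range. Its fold was 1.65-fold (adjusted p = 0.0241, and 0.00016 without that library).

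The mRNA of NRF2 itself did not pass the test: Nfe2l2 was at 180, 150, 139.7, 127 and 154 CPM in clean air and 142, 148 and 163 CPM under BD (log2 fold 0.00, SE 0.08, adjusted p = 0.996), and the groups overlapped throughout. Among 10 regulators of NRF2, Maff, Sqstm1, Mafg and Keap1 rose and Bach2 fell. The risen share was 40%, against 6.1% of all tested genes, and the fallen share of 10% was near their 8.44%. Sqstm1, which encodes the autophagy receptor p62 that binds KEAP1, rose 1.35-fold (adjusted p = 0.000442), from 314–352 CPM in clean air to 410–465 CPM under BD. Bach2, a repressor of antioxidant response elements that is also a B cell factor, fell 1.88-fold (adjusted p = 0.00585) along with the B cell genes described further on, from 29.4–60.0 CPM in clean air to 17.03–29.5 CPM under BD.

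Of 23 glutathione S-transferases, 10 rose (Gsta3, Gsta2, Gstp2, Gstp1, Mgst1, Mgst3, Gstt1, Gstm1, Gstm2 and Gstz1), none fell and the list median was 0.32, with 15 higher without clean-air replicate 1. These risen shares were 43.5% and 65.2%, against 6.1% and 8.63% of all tested genes. Gsta3 stood at 192, 188, 151, 176 and 189 CPM in clean air and 299, 438 and 462 CPM under BD. It rose 2.32-fold (log2 fold 1.22, SE 0.11, adjusted p = 4.26e-05), and no libraries overlapped. Gstt1, the theta-class enzyme that acts on butadiene epoxides, rose 1.37-fold (adjusted p = 0.00744), from 42.7–59.5 CPM in clean air to 59.8–75.3 CPM under BD. Gstm1 rose 1.35-fold (adjusted p = 0.000599), from 210–244 CPM in clean air to 278–323 CPM under BD. Gstp1 and Gstp2 are near-identical genes whose reads may have been split by the counting.

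Of the enzymes that make and clear the epoxides of BD, the hydrolase rose and the main oxidase did not pass. Ephx1 was at 206, 211, 205, 201 and 207 CPM in clean air and at 244, 306 and 316 CPM under BD. It rose 1.40-fold (log2 fold 0.48, SE 0.07, adjusted p = 0.00126), and every BD library was higher. The other 3 epoxide hydrolase genes tested did not pass. Cyp2e1 ranged over 38.8, 64.2, 23.2, 57.2 and 36.4 CPM in clean air and 28.2, 60.5 and 114 CPM under BD, with overlapping groups (log2 fold 0.58, SE 0.41, adjusted p = 0.392), so a difference was not detectable against this spread. Its highest clean-air values were those of replicates 2 and 4, where hepatocyte markers summed to 542 and 308 CPM. Under BD those sums were at most 169 CPM. The part of liver RNA in the Cyp2e1 values was not tested. In the P450 list of 28 tested genes, 2 rose (7.14%, against 6.1% of all tested genes) and 1 fell (3.57%, against 8.44%). Without clean-air replicate 1 the counts were 3 (10.7%, against 8.63%) and 2 (7.14%, against 12.6%). Cyp2b10 rose 1.46-fold (adjusted p = 0.0108), Cyp4b1 rose and Cyp2c44 fell 1.93-fold (adjusted p = 0.0246), a call that was lost in 8 of 19 alternatives.

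Cyp1a1, the P450 switched on by the aryl hydrocarbon receptor, had the highest fold of all genes that passed. Clean-air values were 9.92, 9.66, 11.1, 10.9 and 8.81 CPM, and BD values spread from 30.0 over a median of 47.1 to 168 CPM, with BD replicates 1 and 6 above the others at 141 and 168 CPM. It rose 7.88-fold (log2 fold 2.98, SE 0.53, adjusted p = 0.00692), without overlap. In a fit over all 4 RNA-seq groups, which share 1 estimate of the spread, its adjusted p was 0.0971, and it was 0.000163 in the same fit without 1 library labelled CAST/EiJ BD whose levels lay with C57BL/6J. Of the 15 genes of the receptor's battery, Cyp1a1, Nqo1, Ugt1a6a, Ugt1a1, Ugt1a6b and Ugt1a7c rose (7 genes without clean-air replicate 1), and the receptor gene Ahr fell 1.28-fold (adjusted p = 0.00447), from 155–193 CPM in clean air to 131–147 CPM under BD. The risen shares of the battery were 40% and 46.7%, against 6.1% and 8.63% of all tested genes. Ugt1a6a, a glucuronosyltransferase, rose 1.75-fold (adjusted p = 0.000428). The Ugt1a genes share their last exons, so their counts are not independent of each other. Sult1a1, a phenol sulfotransferase, rose 1.90-fold (adjusted p = 0.00231), and 9 of 16 glucuronidation and sulfation genes rose (median log2 fold 0.70) while Ugt2b34 fell. That risen share was 56.25% with and without clean-air replicate 1, against 6.1% and 8.63% of all tested genes.

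Carboxylesterases hydrolyse esters of drugs and lipids, and 8 of 16 tested carboxylesterase and paraoxonase genes rose, with a median log2 fold of 0.44 and none lower. The risen share was 50% with and without clean-air replicate 1, against 6.1% and 8.63% of all tested genes. Ces1g was at 7.76, 10.1, 6.63, 9.602 and 10.1 CPM in clean air and 29.2, 33.6 and 51.9 CPM under BD. It rose 4.02-fold (log2 fold 2.01, SE 0.17, adjusted p = 3.47e-05), with no overlap. Ces1a rose 3.72-fold (adjusted p = 0.00877) with overlapping groups, its highest clean-air value of 5.04 CPM being that of replicate 3. The Ces1 genes lie side by side and resemble each other, so their reads may be split. Carboxylesterases are also abundant in liver. None of the 12 hepatocyte markers, whose sums are given above, passed edgeR's test (1 had an unadjusted p under 0.05, and DESeq2 called 0), and the part of liver RNA in the carboxylesterase values was not tested.

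Aldehyde and alcohol oxidation genes rose in 6 of 22 cases (Aox1, Aox3, Aldh1a1, Adh1, Xdh and Aldh2), and in 9 of 23 without clean-air replicate 1. These shares were 27.3% and 39.1%, against 6.1% and 8.63% of all tested genes. Aox1, an aldehyde oxidase, was at 87.0, 114, 104.1, 119 and 123 CPM in clean air and 191, 213 and 238 CPM under BD and rose 1.96-fold (log2 fold 0.97, SE 0.09, adjusted p = 4.26e-05), and its relative Aox3 rose 1.73-fold (adjusted p = 5.43e-05). Aldh1a1, a retinal dehydrogenase that is abundant in club cells, rose 1.67-fold (adjusted p = 0.00145), from 1085–1746 CPM in clean air to 1792–2473 CPM under BD. All BD libraries exceeded all clean-air libraries in these 3 genes. Among 23 aldo-keto and carbonyl reductases, Akr1c14, Cbr3, Akr1c19, Akr1b8, Cbr2 and Cbr1 rose and none fell, with 8 higher without clean-air replicate 1. Their risen shares were 26.1% and 34.8%, against 6.1% and 8.63% of all tested genes. Akr1c14, a hydroxysteroid dehydrogenase, stood at 103.4, 99.9, 79.8, 87.2 and 114 CPM in clean air and 132, 318 and 369 CPM under BD and rose 2.88-fold (adjusted p = 0.00285). Cbr3, a carbonyl reductase, rose 2.44-fold (adjusted p = 0.000205), and Akr1c19 rose 1.91-fold (adjusted p = 0.000287). Export pumps for conjugates rose in 3 of 10 cases (30%, against 6.1% of all tested genes), namely Abcg2, Abcc3 and Abcc1. Abcg2 rose 1.43-fold (adjusted p = 0.00215).

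**Figure D3:**
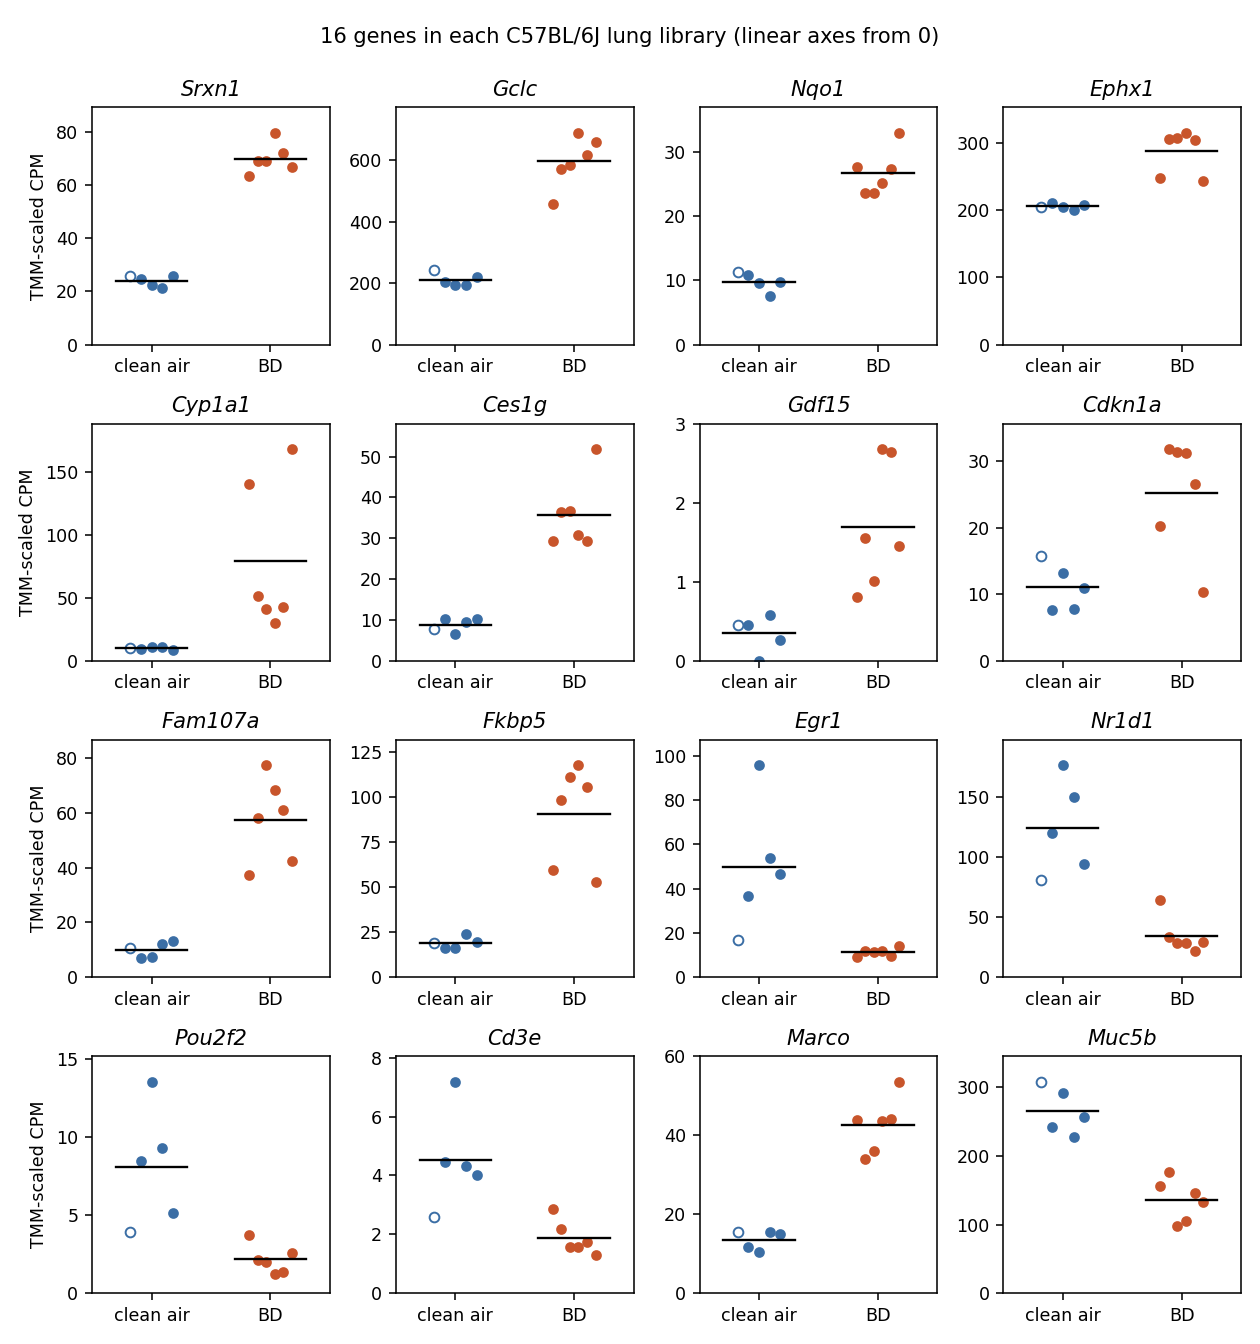
Each panel shows the TMM-scaled CPM of 1 gene in the 5 clean-air (blue) and 6 BD (orange) libraries, with a bar at the group mean and an open circle for clean-air replicate 1. The groups are apart in Srxn1, Gclc, Nqo1, Ephx1, Cyp1a1, Ces1g, Gdf15, Fam107a, Fkbp5, Egr1, Nr1d1, Pou2f2, Marco and Muc5b. Clean-air replicate 1 is the lowest clean-air library in Egr1, Nr1d1, Pou2f2 and Cd3e.

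More targets of p53 rose than fell. Of 43 tested targets, 16 rose (Gdf15, Gtse1, Eda2r, Cdkn1a, Psrc1, Phlda3, Trp53inp1, Fas, Bax, Aen, Plk3, Ccng1, Dcxr, Ercc5, Pmaip1 and Mdm2) and 4 fell (Plk2, Btg2, Trp53 and Cyfip2), and the median log2 fold was 0.14. The risen share was 37.2%, against 6.1% of all tested genes, and the fallen share of 9.30% was near the 8.44% of all tested genes. Without clean-air replicate 1, 17 targets rose and 6 fell. The stress cytokine Gdf15 was at a low level in clean air, 0.458, 0.453, 0, 0.582 and 0.264 CPM, and at 0.810, 1.505 and 2.68 CPM under BD. It rose 4.502-fold (log2 fold 2.17, SE 0.44, adjusted p = 0.00676), a low-count result, since 1 CPM is about 10.6 counts in the smallest library. Eda2r, a receptor of the tumour necrosis factor family, stood at 7.57, 4.68, 5.51, 7.97 and 5.33 CPM in clean air and 12.03, 14.7 and 16.97 CPM under BD. It rose 2.29-fold (log2 fold 1.197, SE 0.15, adjusted p = 0.000462), and neither gene's groups overlapped.

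Cdkn1a, which encodes the cell cycle inhibitor p21, was at 15.7, 7.62, 13.3, 7.74 and 10.9 CPM in clean air and at 10.3, 28.9 and 31.8 CPM under BD. It rose 2.26-fold (log2 fold 1.18, SE 0.30, adjusted p = 0.024) with overlap: BD replicate 6, at 10.3 CPM, lay among the clean-air libraries, and 5 of 6 BD libraries lay above all of them. The call was lost in 5 of 19 alternatives (highest adjusted p = 0.0843). Mdm2, the ubiquitin ligase of p53, passed with all libraries and not without clean-air replicate 1 (adjusted p = 0.083). Trp53, the gene of p53 itself, fell 1.58-fold, from 17.2, 20.5, 28.9, 23.7 and 18.3 CPM in clean air to 9.84, 13.7 and 16.4 CPM under BD (adjusted p = 0.0103), with clean-air replicate 1 the lowest clean-air library. Btg2, an antiproliferative p53 target that is also an immediate early gene, fell 1.52-fold (adjusted p = 0.00378), and Cyfip2 fell 1.68-fold (adjusted p = 0.00351).

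The DNA repair lists held few calls, and their risen shares stand beside 6.1% of all tested genes. None of 26 base excision repair genes passed edgeR's test, although 6 had an unadjusted p under 0.05 and DESeq2 called 1, and 1 fell without clean-air replicate 1. Of 27 nucleotide excision repair genes, Ercc5 and Rpa1 rose (7.41%), Ercc5 by 1.25-fold (adjusted p = 0.0151). Without that library 4 rose (14.8%, against 8.63% of all tested genes). Among 57 genes of double-strand break, crosslink and mismatch repair, 5 rose (8.77%), namely Rad51ap1, Fancd2, Fanci, Rev1 and Brca1. Without that library 5 rose (8.77%, near the 8.63% of all tested genes) and 1 fell. Fancd2, of the Fanconi pathway for DNA crosslinks, rose 1.43-fold (adjusted p = 0.0085), from 4.29–5.99 CPM in clean air to 6.47–8.48 CPM under BD. Rad51ap1, which acts in homologous recombination, rose 1.92-fold (adjusted p = 0.00731), from 0.747–1.11 CPM in clean air to 1.33–2.45 CPM under BD.

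Proliferation genes rose from a low level. In the cell cycle list 27 of 60 tested genes rose and 3 fell (Ccnd2, Cdt1 and Cdc25b), with a median log2 fold of 0.36. Those shares were 45% and 5%, against 6.1% and 8.44% of all tested genes. Among members called with and without clean-air replicate 1, at a group mean of at least 1 CPM, Cdk1, Ccnb1 and Mcm10 rose most. They act at entry into mitosis and the start of replication. Cdk1 was at 4.74, 2.34, 2.24, 2.74 and 3.17 CPM in clean air and 5.47, 5.85 and 6.91 CPM under BD. It rose 1.92-fold (log2 fold 0.94, SE 0.18, adjusted p = 0.00448), and no library overlapped. Gtse1, a G2 and S phase protein also listed as a p53 target, rose 2.57-fold (adjusted p = 0.000916), from 1.1199–1.43 CPM in clean air to 2.005–3.96 CPM under BD. Cyclin B1 (Ccnb1) rose 1.76-fold (adjusted p = 0.031) with overlap and lost its call in 9 of 19 alternatives. Cdc25b, a phosphatase that activates cyclin-dependent kinases, fell 1.36-fold (adjusted p = 0.015). Without clean-air replicate 1 the list held 30 that rose (50%, against 8.63%) and 3 that fell (5%, against 12.6%).

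Glucocorticoid-responsive genes included several of the highest folds. Of 32 tested, 17 rose (Fam107a, Fkbp5, Zbtb16, Mt2, Map3k6, Angptl4, Hif3a, Rgcc, Mt1, Tsc22d3, Sult1a1, Glul, Klf15, Sgk1, Klf9, Lcn2 and Tgm2), Dusp1 fell, and the median log2 fold was 0.54. Without clean-air replicate 1, 20 rose and none fell, so the call of Dusp1 as lower ended. The risen shares were 53.1% with all libraries and 62.5% without that one, against 6.1% and 8.63% of all tested genes. Fam107a, an actin-associated stress gene whose promoter is printed above, stood at 10.5, 6.87, 7.47, 11.9 and 13.3 CPM in clean air and 37.2, 59.4 and 77.3 CPM under BD. It rose 5.61-fold (log2 fold 2.49, SE 0.23, adjusted p = 0.00016). Fkbp5, a co-chaperone of the glucocorticoid receptor, stood at 18.9, 16.3, 16.3, 23.7 and 19.3 CPM in clean air and 52.9, 101.7 and 117 CPM under BD, and rose 4.78-fold (log2 fold 2.26, SE 0.23, adjusted p = 0.000287). In both genes the lowest BD values were those of replicates 1 and 6, and still lay above every clean-air library.

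Zbtb16, a zinc finger transcription factor, stood at 71.5, 48.5, 77.6, 109 and 87.6 CPM in clean air and 228, 274 and 357 CPM under BD and rose 3.62-fold (log2 fold 1.86, SE 0.20, adjusted p = 0.000394). Angptl4, an inhibitor of lipoprotein lipase, stood at 35.6, 26.8, 26.6, 37.6 and 31.1 CPM in clean air and 68.1, 79.7 and 93.9 CPM under BD and rose 2.48-fold (log2 fold 1.31, SE 0.11, adjusted p = 2.79e-05). Mt1, a metal-binding protein, rose 2.05-fold (adjusted p = 0.000999), from 14.5–23.6 CPM in clean air to 29.4–48.2 CPM under BD. Hif3a, a negative regulator of the hypoxia response, rose 2.45-fold (adjusted p = 0.00764) with overlap. The receptor gene Nr3c1 did not pass.

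Immediate early genes, which are transcribed within minutes of a stimulus, were lower under BD. Of 36 tested, 13 fell (Egr1, Nr4a3, Nr4a1, Fos, Junb, Dusp2, Zfp36, Nr4a2, Klf2, Cyr61, Ier2, Dusp1 and Btg2), Ctgf and Maff rose, and the median log2 fold was -0.36, with 16 of the 36 lower without clean-air replicate 1. The fallen share was 36.1%, against 8.44% of all tested genes. The fit without that library tested 37 of the list, of which 17 fell (45.9%, against 12.6%). Egr1 was at 16.7, 36.5, 95.7, 53.7 and 46.7 CPM in clean air and 9.21, 11.5 and 14.1 CPM under BD. It fell 4.36-fold (log2 fold -2.13, SE 0.36, adjusted p = 0.00509), without overlap. Clean-air libraries spread over 16.7–95.7 CPM, with replicate 1 close to the BD values and replicate 3 highest. Nr4a1, an orphan nuclear receptor, stood at 44.5, 43.3, 136, 113 and 60.3 CPM in clean air and 11.03, 22.2 and 36.0 CPM under BD, and fell 3.59-fold (log2 fold -1.84, SE 0.38, adjusted p = 0.0121). Its relative Nr4a3 fell 3.90-fold (adjusted p = 0.00709) with overlapping groups. Ctgf, a matricellular growth factor, rose 1.87-fold (adjusted p = 0.000246), from 111–167 CPM in clean air to 232–287 CPM under BD.

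Clock genes moved in opposite directions. Of 21 tested, Cry1, Per2, Tef and Rora were among those that rose and Arntl, Dbp and Nr1d1 fell, and without clean-air replicate 1 the number that fell was 6. With all libraries 23.8% rose and 14.3% fell, against 6.1% and 8.44% of all tested genes. Without that library 23.8% rose and 28.6% fell, against 8.63% and 12.6%. Nr1d1, the haem-binding repressor REV-ERB alpha, was at 81.2, 120, 177, 150 and 94.3 CPM in clean air and 21.7, 29.1 and 64.6 CPM under BD. It fell 3.59-fold (log2 fold -1.84, SE 0.30, adjusted p = 0.00366), and BD replicate 1 stood highest of its group. Arntl, the activator BMAL1 that Nr1d1 represses, fell 1.67-fold (adjusted p = 0.00453), from 6.93–10.7 CPM in clean air to 4.05–6.33 CPM under BD. Dbp, an output transcription factor, fell 1.81-fold (adjusted p = 0.0102) with overlap at BD replicate 1. Cry1 rose 1.75-fold (adjusted p = 0.00202) and Per2 rose 1.44-fold (adjusted p = 0.00786), each without overlap. The labels give no time of day for the dissections.

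Lymphocyte genes fell. Of 24 tested B cell markers, 23 fell and 1 did not pass, with a median log2 fold of -1.35, and without clean-air replicate 1 all 24 fell. These fallen shares were 95.8% and 100%, against 8.44% and 12.6% of all tested genes. The markers summed to 405, 663, 784, 763 and 569 CPM in clean-air replicates 1 to 5 and to 162, 239 and 399 CPM at the lowest, median and highest BD library. BD replicates 1 and 6 stood apart at 392 and 399 CPM, and the other BD libraries lay at 162–252 CPM. All BD libraries were lower, and clean-air replicate 1 lay just above the highest of them. In whole lung, fewer cells of a type and less RNA per cell cannot be told apart.

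Pou2f2, the B cell transcription factor OCT2, was at 3.91, 8.45, 13.5, 9.31 and 5.11 CPM in clean air and 1.21, 2.07 and 3.74 CPM under BD. It fell 3.63-fold (log2 fold -1.86, SE 0.35, adjusted p = 0.00516), and its groups were separated only narrowly, by clean-air replicate 1. Tnfrsf13c, the survival receptor for the cytokine BAFF, fell 3.06-fold (adjusted p = 0.00202), from 4.45–8.61 CPM in clean air to 1.25–3.35 CPM under BD. The related receptor Tnfrsf13b, which is not on the marker list, fell 3.04-fold (adjusted p = 0.00402), from 1.21–2.15 CPM in clean air to 0.270–1.001 CPM under BD. Pax5, the commitment factor of the B lineage, fell 2.96-fold (adjusted p = 0.0149), with groups that overlapped. Ikzf3, the lymphoid factor Aiolos, fell 2.82-fold (adjusted p = 0.00601), from 25.1–56.8 CPM in clean air to 8.63–21.4 CPM under BD. Klhl14, which is expressed in B cells, fell 3.37-fold (adjusted p = 0.00313), and the interleukin 5 receptor Il5ra, found on eosinophils and B cells, fell 3.16-fold (adjusted p = 0.00744) with no overlap.

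T and NK cell genes were also lower. Of 28 T cell markers 14 fell and none rose (median log2 fold -0.65), with 21 lower without clean-air replicate 1. Of 18 NK cell markers 9 fell and none rose (median -0.55), with 6 lower without that library. With all libraries the fallen share was 50% for either list, against 8.44% of all tested genes. Without that library it was 75% for T cell and 33.3% for NK cell markers, against 12.6%. T cell markers summed to 198–316 CPM in clean air and 143–209 CPM under BD, so the groups overlapped at clean-air replicate 1. Cd3e, a chain of the T cell receptor complex, was at 2.59, 4.45, 7.19, 4.31 and 4.01 CPM in clean air and 1.30, 1.65 and 2.85 CPM under BD and fell 2.34-fold (log2 fold -1.23, SE 0.25, adjusted p = 0.00692). Bcl11b, a T lineage factor, fell 2.25-fold (adjusted p = 0.00299), and Ccr7, the chemokine receptor for homing to lymph nodes, fell 2.34-fold (adjusted p = 0.00143). Runx3, a factor of cytotoxic lymphocytes, fell 2.83-fold (adjusted p = 0.00304), from 3.72–7.17 CPM in clean air to 1.11–2.89 CPM under BD. Eomes, a factor of NK and memory T cells, fell 1.85-fold (adjusted p = 0.00235), from 2.47–3.20 CPM in clean air to 1.21–1.89 CPM under BD. No test compared the falls of B, T and NK genes.

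**Figure D4:**
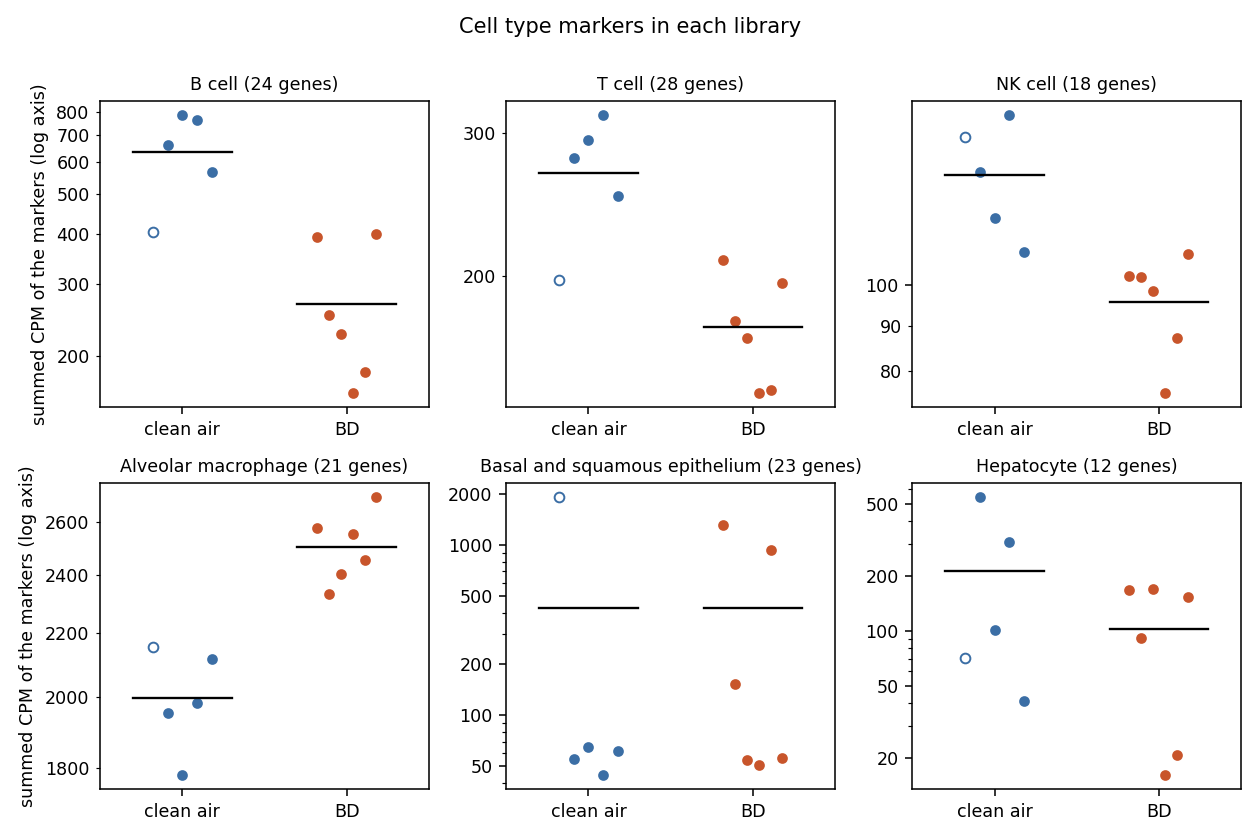
Points give the summed CPM of each cell type's markers on a log axis in the 5 clean-air (blue, replicate 1 open) and 6 BD (orange) libraries, with bars at the group means. B cell markers are lower and alveolar macrophage markers higher in every BD library, whereas squamous and hepatocyte markers are high in single libraries of both groups.

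Antigen presentation and innate sensing genes were lower as well. Of 11 MHC class II genes, 9 fell and none rose (median log2 fold -0.67), with 7 lower without clean-air replicate 1. These fallen shares were 81.8% and 63.6%, against 8.44% and 12.6% of all tested genes. Members of the class summed to 1899–2260 CPM in clean air. BD replicates 1 and 6 stood at 1853 and 1817 CPM, apart from the other BD libraries at 1081–1359 CPM. Ciita, the activator of the class, stood at 62.8, 75.1, 91.0, 76.2 and 103.9 CPM in clean air and 22.5, 39.1 and 55.9 CPM under BD and fell 2.03-fold (log2 fold -1.02, SE 0.22, adjusted p = 0.0108). H2-Ob, a class II chaperone of B cells, fell 2.36-fold (adjusted p = 0.0098), from 33.8–59.4 CPM in clean air to 12.7–31.7 CPM under BD. Neither gene's groups overlapped. Of 43 interferon-stimulated genes 14 fell (32.6%, against 8.44% of all tested genes) and none rose. Without clean-air replicate 1, 16 fell (37.2%, against 12.6%) and 2 rose (4.65%, against 8.63%). Those that fell included Tgtp1, an interferon-induced GTPase, which fell 1.92-fold (adjusted p = 0.0186) with overlap. Of 30 NF-kappaB and Toll-like receptor genes 12 fell (40%, against 8.44%) and none rose, with 16 lower without that library (53.3%, against 12.6%). The NF-kappaB subunit Rel stood at 18.1, 19.9, 26.6, 19.5 and 21.1 CPM in clean air and 7.95, 10.5 and 11.9 CPM under BD and fell 2.03-fold (log2 fold -1.02, SE 0.12, adjusted p = 0.000287). Tlr9, a sensor of microbial DNA, fell 2.60-fold (adjusted p = 0.0092) with overlap. Many of these genes are expressed in B cells, whose markers were lower in the same libraries, and the part of that in these values was not tested.

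Macrophage genes went both ways. Of 19 alveolar macrophage markers 6 rose (Marco, Lpl, Ctsd, Atp6v0d2, Chil3 and Mrc1) and none fell, with 7 higher without clean-air replicate 1, and the markers summed to 1779–2157 CPM in clean air and 2333–2696 CPM under BD. The risen shares were 31.6% and 36.8%, against 6.1% and 8.63% of all tested genes. Marco, a scavenger receptor for inhaled particles and bacteria, was at 15.4, 11.7, 10.5, 15.5 and 14.9 CPM in clean air and 34.0, 43.7 and 53.6 CPM under BD. It rose 3.09-fold (log2 fold 1.63, SE 0.13, adjusted p = 2.77e-05), with no overlap. Lpl, lipoprotein lipase, rose 1.54-fold (adjusted p = 0.0022), and Ctsd, a lysosomal protease, rose 1.33-fold (adjusted p = 0.00382). Of 32 lysosome and autophagy genes 9 rose (28.1%, against 6.1%) and none fell. Without clean-air replicate 1, 11 rose (34.4%, against 8.63%) and 1 fell (3.1%, against 12.6%). Among 23 genes of interstitial macrophages and monocytes, Cd163 rose and Csf1r, Emr4, Ccr2, Cx3cr1 and Nr4a1 fell, and without that library 3 rose and 6 fell. Cd163, the haemoglobin scavenger receptor, rose 1.84-fold (adjusted p = 0.000213), from 11.01–14.2 CPM in clean air to 20.7–27.8 CPM under BD. Ccr2, the chemokine receptor of inflammatory monocytes, stood at 48.4, 70.4, 50.1, 57.7 and 49.9 CPM in clean air and 17.3, 23.0 and 42.4 CPM under BD and fell 2.06-fold (adjusted p = 0.00948). Cx3cr1 fell 2.14-fold (adjusted p = 0.0189) with overlap at BD replicate 1.

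Of 36 chemokines and cytokines, Ccl6 and Il34 rose and 7 fell (19.4%, against 8.44% of all tested genes). Without clean-air replicate 1 the counts were 1 (2.78%, against 8.63%) and 6 (16.7%, against 12.6%). Cxcl12, the ligand that holds blood progenitors and lymphocytes in tissue, was at 184, 219, 237, 211 and 221 CPM in clean air and 119, 131 and 141 CPM under BD. It fell 1.64-fold (log2 fold -0.72, SE 0.07, adjusted p = 0.000122), and every BD library was lower than every clean-air library. Ccl6, a macrophage chemokine, rose 1.59-fold (adjusted p = 0.00319), and Il1b, interleukin 1 beta, fell 1.91-fold (adjusted p = 0.0205) with overlap. Il1f9, interleukin 36 gamma, rose 2.90-fold (adjusted p = 0.00572), from 4.15, 2.04, 2.15, 1.57 and 2.12 CPM in clean air to 4.81, 5.90 and 12.1 CPM under BD. Its highest clean-air value was that of replicate 1, in which squamous markers were also highest, and without that library the fold was 3.65 (adjusted p = 0.00164). Red cell genes rose in 7 of 14 cases (50%, against 6.1% of all tested genes), and in 9 without that library (64.3%, against 8.63%). Tfrc, the transferrin receptor, rose 1.73-fold (adjusted p = 0.000288), from 95.7–137 CPM in clean air to 181–220 CPM under BD, and the beta globin gene Hbb-bt, whose reads near-identical globin genes may share, rose 1.32-fold (adjusted p = 0.0148) with overlap.

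Calls among markers of lung epithelium differed from list to list. None of 10 alveolar type 1 markers passed edgeR's test (1 had an unadjusted p under 0.05, and DESeq2 called 1), and none of 24 ciliated cell markers did (0 and 0). In the alveolar type 2 list of 14, Sftpc, Sftpd and Sftpa1 rose and Etv5 and Nkx2-1 fell, with 4 higher and 3 lower without clean-air replicate 1. The risen and fallen shares were 21.4% and 14.3%, against 6.1% and 8.44% of all tested genes. Without that library they were 28.6% and 21.4%, against 8.63% and 12.6%. Sftpc rose 1.35-fold (adjusted p = 0.0152) with overlap. Nkx2-1, the lineage factor of lung epithelium, fell 1.46-fold (adjusted p = 0.00859), from 46.8, 46.7, 75.2, 46.8 and 52.9 CPM in clean air to 32.7, 37.2 and 40.4 CPM under BD. In the club cell list of 12, Aldh1a1 and Pon1 rose and the secretoglobin Scgb1a1 fell. Without that library 4 rose and none fell, so the call of Scgb1a1 ended. The risen share was 16.7% with all libraries (against 6.1% of all tested genes) and 33.3% without that library (against 8.63%). The fallen share with all libraries, 8.33%, was near the 8.44% of all tested genes. Muc5b, the secreted mucin of the airways, stood at 308, 241, 291, 228 and 257 CPM in clean air and 98.5, 139.5 and 177 CPM under BD and fell 1.95-fold (log2 fold -0.96, SE 0.14, adjusted p = 0.00133), with no overlap. The call of Muc5b was lost in both fits over all 4 RNA-seq groups (highest adjusted p = 0.196). Clca1, a mucus-associated protein of goblet cells, rose 1.96-fold (adjusted p = 0.0012) from a low level, from 3.10–5.30 CPM in clean air to 6.16–8.98 CPM under BD. It was the only 1 of 12 goblet and mucus markers that rose (8.33%), and 3 fell (25%), with a median log2 fold of -0.48. Without clean-air replicate 1, 1 of 13 rose (7.69%, against 8.63%) and 2 fell (15.4%, against 12.6%). Of 10 neuroendocrine markers, 2 rose (Calca and Uchl1), 1 fell (Scg5) and 7 did not pass, with a median log2 fold of -0.08. Without clean-air replicate 1 the counts were again 2 and 1. Calca, which encodes calcitonin gene-related peptide in neuroendocrine cells, rose 2.34-fold (adjusted p = 0.00202), from 0.529–0.840 CPM in clean air to 1.002–1.79 CPM under BD.

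Vessel genes changed in part. Of 26 endothelial markers 6 fell (Kdr, Cdh5, Efnb2, Gja5, Sox17 and Aplnr) and 2 rose (Slc6a2 and Gpihbp1), with 7 and 2 without clean-air replicate 1. The fallen share was 23.1%, against 8.44% of all tested genes, and 26.9% without that library, against 12.6%. The risen share of 7.69% was near the 6.1% of all tested genes. Aplnr, the apelin receptor, was at 81.8, 66.5, 75.2, 58.9 and 64.2 CPM in clean air and 21.7, 30.3 and 44.0 CPM under BD. It fell 2.23-fold (log2 fold -1.16, SE 0.16, adjusted p = 0.00107). Sox17, an arterial transcription factor, fell 1.56-fold (adjusted p = 0.00184). Slc6a2, the noradrenaline transporter, rose 1.91-fold (adjusted p = 0.000127), from 78.3–109 CPM in clean air to 151–204 CPM under BD, and Lyve1, a hyaluronan receptor of lymphatic vessels and some macrophages, rose 1.82-fold (adjusted p = 0.000557), from 227–298 CPM in clean air to 369–550 CPM under BD. In these 4 genes no BD library overlapped a clean-air library. Lyve1 was the only 1 of 7 lymphatic endothelium markers that rose (14.3%, against 6.1%), and the other 6 did not pass. Without clean-air replicate 1, 1 rose (14.3%, against 8.63%) and 1 fell (14.3%, against 12.6%).

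Among matrix genes, 4 of 32 collagen chains rose (Col28a1, Col6a1, Col12a1 and Col23a1) and Col5a3 fell. These are 12.5% and 3.1%, against 6.1% and 8.44% of all tested genes. Without clean-air replicate 1 there were 3 that rose (9.4%, near the 8.63% of all tested genes). In that fit 2 fell (6.25%, below the 12.6% of all tested genes). Col6a1 rose 1.35-fold (adjusted p = 0.000394), from 307–346 CPM in clean air to 424–463 CPM under BD. Of 38 genes of elastic fibre and matrix assembly, 6 rose (15.8%, against 6.1%) and 3 fell (7.89%, near the 8.44% of all tested genes). Without clean-air replicate 1, 9 rose (23.7%, against 8.63%) and 5 fell (13.2%, near 12.6%). Among those that fell, Fbn2, fibrillin 2 of the elastic microfibrils, fell 3.34-fold (log2 fold -1.74, SE 0.26, adjusted p = 0.00105), from 3.02, 2.26, 1.77, 1.51 and 2.20 CPM in clean air to 0.347, 0.717 and 0.901 CPM under BD, without overlap. The growth factor gene Tgfb1 stood at 21.1, 19.2, 37.1, 22.9 and 23.8 CPM in clean air and 7.76, 12.8 and 14.8 CPM under BD and fell 1.99-fold (log2 fold -0.99, SE 0.18, adjusted p = 0.0045). Spon2, a secreted matrix protein, fell 2.85-fold (adjusted p = 0.000955), with clean-air replicate 1 highest at 9.19 CPM. Of 52 genes of TGF-beta, BMP, Wnt and Notch signalling, 10 fell (19.2%, against 8.44% of all tested genes) and 2 rose. Without clean-air replicate 1, 14 fell (26.9%, against 12.6%) and 3 rose.

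Other genes with folds at the extremes belonged to no list. Doc2b, a calcium sensor of vesicle fusion, rose 3.26-fold (adjusted p = 0.00268), from 0.679–1.94 CPM in clean air to 2.95–7.64 CPM under BD. Myrip, which links secretory granules to actin motors, stood at 24.9, 21.4, 26.3, 27.4 and 28.7 CPM in clean air and 45.1, 80.5 and 93.3 CPM under BD and rose 2.85-fold (log2 fold 1.51, SE 0.17, adjusted p = 0.000394). Slc22a12, the urate transporter, rose 3.31-fold (adjusted p = 0.00789), from 0.270–1.10 CPM in clean air to 1.35–4.22 CPM under BD. Mettl21e, a putative methyltransferase, rose 2.83-fold (adjusted p = 0.000573), from 2.05–5.18 CPM in clean air to 7.29–10.96 CPM under BD. Rasal1, a Ras GTPase activator, fell 2.83-fold (adjusted p = 0.00202), from 0.917–2.05 CPM in clean air to 0.424–0.811 CPM under BD. The groups were apart in all 5.

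The counts of several broad groups moved with clean-air replicate 1, without which 8.63% of all tested genes rose and 12.6% fell. Proteasome subunits rose in 5 of 31 cases with all libraries (16.1%) and in 20 without it (64.5%). Oxidative phosphorylation genes rose in 1 of 67 cases (1.49%) and in 17 without it (25.4%). The proteasome ATPase Psmc4 rose 1.22-fold (adjusted p = 0.0204), from 47.7–62.9 CPM in clean air to 63.0–72.3 CPM under BD. Cytosolic ribosomal protein genes rose in 1 of 75 cases (1.33%) and in 5 without that library (6.67%), below the shares of all genes both times. Clean-air replicate 1 had the highest mean level of this list among the clean-air libraries. Histone modifiers fell in 11 of 67 cases (16.4%, against 8.44% of all tested genes) and in 24 without it (35.8%). Kmt2d, a histone methyltransferase, was at 189, 298, 532, 409 and 275 CPM in clean air and 123, 189 and 241 CPM under BD and fell 1.89-fold (adjusted p = 0.0357), Setd1b, of the same family, fell 2.18-fold (adjusted p = 0.0219), and Hspg2, the basement membrane proteoglycan perlecan, fell 1.70-fold (adjusted p = 0.024). In all 3 genes clean-air replicate 3 was highest, and clean-air replicate 1 lay within the BD range. Without clean-air replicate 3 the adjusted p of Kmt2d was 0.0791, of Setd1b 0.0355 and of Hspg2 0.0594. Of 24 genes of cholesterol synthesis and uptake, 7 fell, with Stard4, a sterol carrier, lower by 1.40-fold (adjusted p = 0.00309) and Idi1, an isomerase of the pathway, lower by 1.35-fold (adjusted p = 0.00506), and Pmvk rose, with 8 and 1 without clean-air replicate 1. The fallen shares were 29.2% and 33.3%, against 8.44% and 12.6% of all tested genes.

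**Figure D5:**
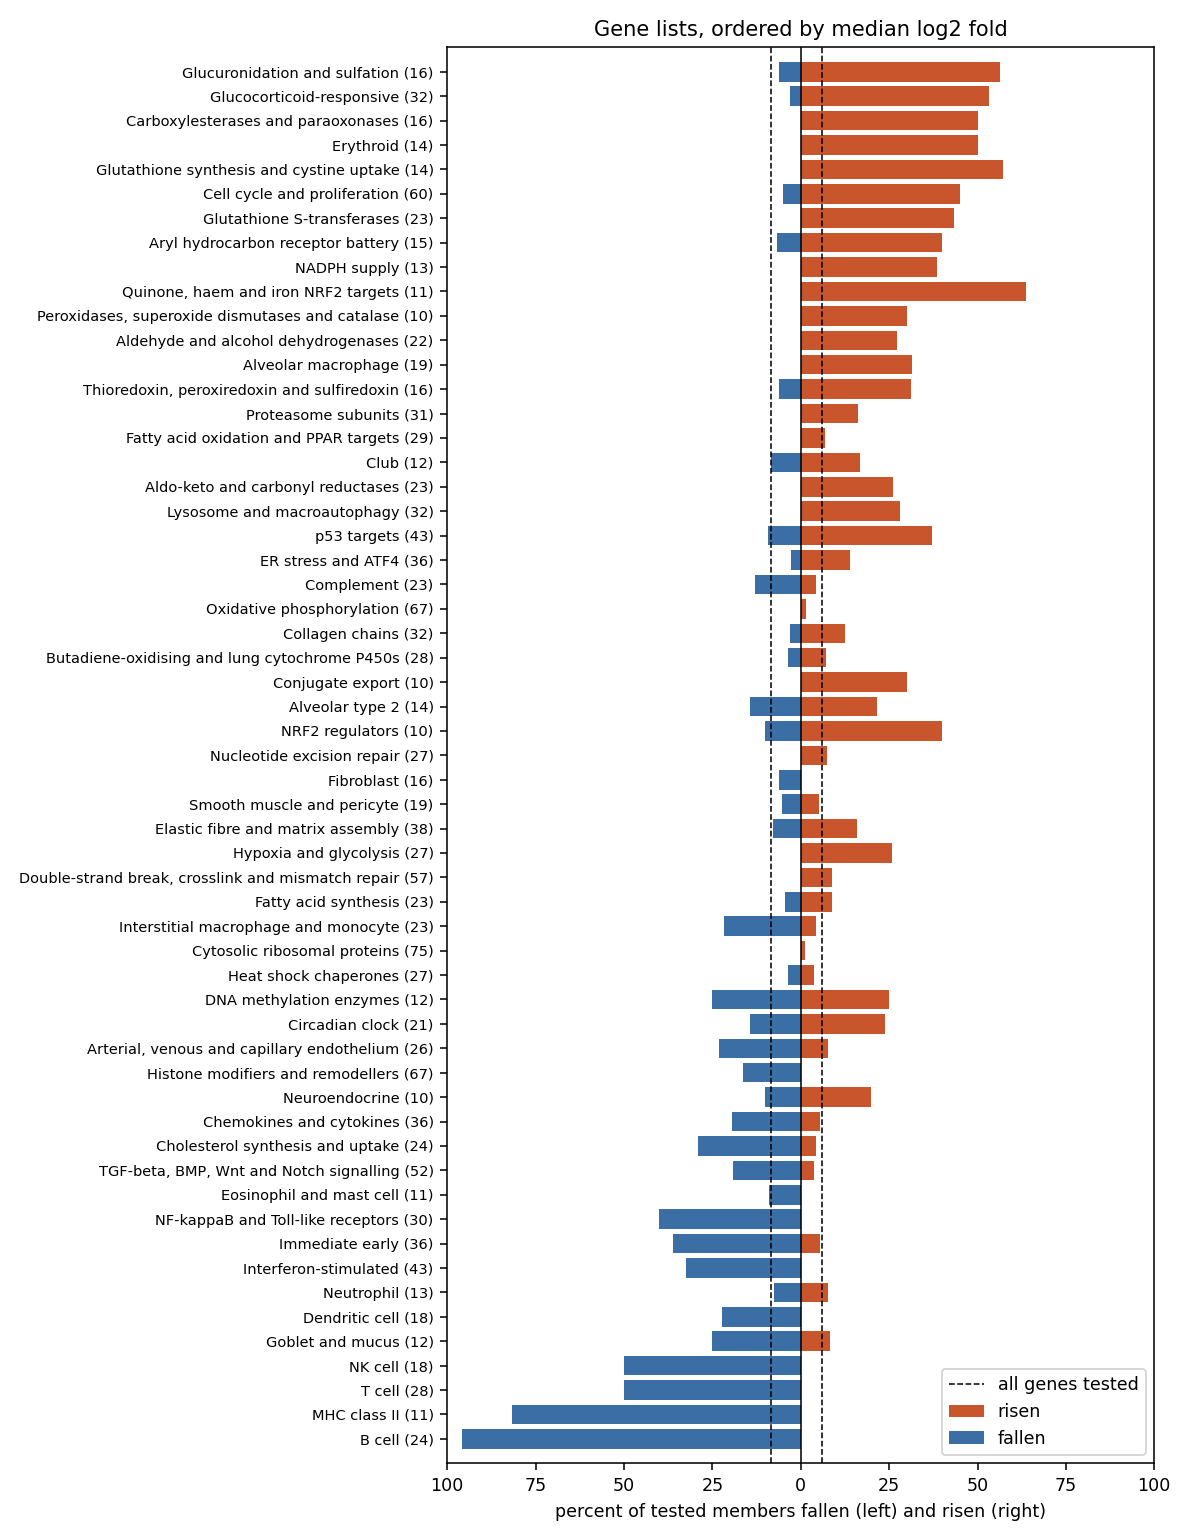
Bars give the percent of tested members that rose (orange, right) and fell (blue, left) for lists of at least 10 tested genes with at least 1 call, with the number tested in parentheses and the order set by the median log2 fold. Dashed lines mark the share of all tested genes, 6.1% risen and 8.44% fallen; glutathione, conjugation and glucocorticoid lists stand at the top, and B cell and MHC class II lists at the bottom.

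To see whether these genes responded alike in CAST/EiJ, the difference of the BD response between the strains was tested in edgeR over the 4 RNA-seq groups, without 1 of the 6 libraries labelled CAST/EiJ BD. On a score of the 100 genes most above and the 100 most below C57BL/6J in clean-air CAST/EiJ (mean log2(CPM + 1), the first less the second), that library stood at -2.03, within the C57BL/6J BD libraries (-2.37 to -1.82), while the other 5 stood at 2.89 to 3.37. Of 17377 genes, 1641 passed (9.44%). Among the 14 highest and 14 lowest folds of C57BL/6J, 21 of 28 passed, all with a smaller estimated fold in CAST/EiJ. The 28 were chosen by their fold in C57BL/6J, which the tested difference contains, so the share describes them and is not independent of that choice. Fam107a had a log2 fold of 0.03 in CAST/EiJ (strain difference -2.46, adjusted p = 0.00149), and Fkbp5 one of 0.02 (difference -2.23, adjusted p = 0.0117). Egr1 had one of -0.05 (difference 2.09, adjusted p = 0.022). Srxn1 had a log2 fold of 1.61 in CAST/EiJ and Gclc of 1.66, and their strain differences of 0.06 and 0.16 did not pass (adjusted p = 0.756 and 0.624). Of the 7 clean-air CAST/EiJ libraries, 5 carry title numbers over 100. Without all libraries so numbered, 320 genes passed, and the 21 genes kept their sign while 4 of them passed.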

How the data were processed

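The polyA RNA of whole lung was sequenced as TruSeq libraries, per the labels' protocols. The deposited table holds whole-number read counts per gene, 23893 entries in all, and GSNAP and the mm9 build are named in the submitters' processing notes. The counter, its strand setting and its annotation version are not given in the sources used here. From those counts, genes passing edgeR's filterByExpr were scaled by TMM and tested with the quasi-likelihood F test (edgeR 4.0.16, R 4.3.3, robust dispersions), BD against clean air, 6 libraries against 5, with Benjamini-Hochberg adjustment over 16717 genes and a threshold of 0.05. Totals of 10601756–37529979 counts per library mean that 1 CPM rests on 10.6 counts in the smallest library. No pair of libraries of a group agreed within sampling noise (lowest chi-square per degree of freedom 5.19 over 25 pairs). On simulated counts the test recovered 71.6% of genes changed 1.5-fold, 88.1% at 2-fold and 98.5% at 4-fold, with 2 false calls among 173 (16634 genes).

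The members, the 69 gene lists and the tests were chosen with earlier results of these data known. Genes were named by a rule. It took the 14 highest and 14 lowest folds and the next 6 smallest p-values among genes that passed with and without clean-air replicate 1, had a group mean of at least 1 CPM, did not overlap between groups and had a full symbol. It added up to 3 genes in each direction of each list, by fold, and always Cyp2e1, Ephx1, Gstt1, Gstm1, Cdkn1a, Cyp1a1, Nfe2l2 and Trp53. Mt1 and Mdm2 were named after their values were seen. Of the tested entries, 57 had counts identical to another entry, 15 of them called. Other settings were DESeq2 1.42.0, median-of-ratios factors, no filter, a prior count of 2, a test against a fold of 1.2, fits over all 4 RNA-seq groups, and each library left out in turn. Leaving out the 3 libraries with squamous markers was chosen after seeing the data. Promoter letters came from RefSeq tables on GRCm38.p6.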

Additional observations from a re-analysis of the deposited data

Results flagged for a closer look

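Among 140 groups of library totals and list means, 14 held 1 library far from the others by Dixon's test, where chance alone gives about 7, since it marks about 1 group in 20. The values are means of log2(CPM + 1) over a list's tested genes. Clean-air replicate 1 was highest of its group for glutathione synthesis and cystine uptake (4.22), peroxidases, superoxide dismutases and catalase (6.46), ER stress and ATF4 (5.56), heat shock chaperones (6.67), cytosolic ribosomal proteins (7.15), goblet and mucus (4.36) and basal and squamous epithelium (5.41). Clean-air replicate 2 was highest of its group for butadiene-oxidising and lung cytochrome P450s (4.80). Clean-air replicate 1 was lowest of its group for base excision repair (3.50). Clean-air replicate 3 was highest of its group for TGF-beta, BMP, Wnt and Notch signalling (4.98). Clean-air replicate 3 was lowest of its group for cardiac and skeletal muscle (4.51). Clean-air replicate 4 was lowest of its group for neutrophil (3.22). BD replicate 5 was highest of its group for aldehyde and alcohol dehydrogenases (6.08). BD replicate 1 was highest of its group for neutrophil (3.86).

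Among 262 groups of single genes, 24 held such a library, where chance gives about 13.1. Clean-air replicate 1 was highest for Slc7a11 (14.4 CPM), Gsta2 (5.93 CPM), Gpx2 (19.3 CPM), Arntl (10.7 CPM), Spon2 (9.19 CPM), Il1f9 (4.15 CPM) and Plod2 (95.9 CPM). BD replicate 6 was highest for Slc7a11 (37.1 CPM) and Ces1g (51.9 CPM). BD replicate 1 was lowest for Sqstm1 (410 CPM). BD replicate 5 was highest for Gpx2 (22.9 CPM), Arntl (6.33 CPM) and Slc22a12 (4.22 CPM). Clean-air replicate 4 was lowest for Cyp2b10 (336 CPM). Clean-air replicate 3 was highest for Ces1a (5.04 CPM), Nkx2-1 (75.2 CPM) and Tgfb1 (37.1 CPM). BD replicate 1 was highest for Nr1d1 (64.6 CPM), Dbp (83.0 CPM) and Cx3cr1 (14.2 CPM). Clean-air replicate 1 was lowest for Per2 (84.5 CPM). BD replicate 5 was lowest for C6 (31.6 CPM). Clean-air replicate 3 was lowest for Serping1 (247 CPM). Clean-air replicate 2 was highest for Mzb1 (5.96 CPM).

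Between the strains, 21 of the 28 genes with the highest and lowest folds in C57BL/6J passed edgeR's test of the difference of the BD response. The values are log2 ratios of the CAST/EiJ response over the C57BL/6J response. Among genes that rose in C57BL/6J they were Cyp1a1 (-2.19), Fam107a (-2.46), Fkbp5 (-2.23), Gdf15 (-1.71), Zbtb16 (-1.50), Slc22a12 (-2.37), Marco (-1.37), Akr1c14 (-1.31), Myrip (-1.34) and Mettl21e (-1.30). Among genes that fell they were Egr1 (2.09), Pou2f2 (2.06), Nr4a1 (2.02), Fbn2 (1.65), Il5ra (2.06), Tnfrsf13c (1.73), Tnfrsf13b (1.54), Spon2 (0.96), Runx3 (1.91), Rasal1 (1.78) and Ikzf3 (1.71). None of the 21 passed in CAST/EiJ alone. The 28 were picked by their fold in C57BL/6J, so a smaller fold elsewhere is partly built into the choice.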

How the results depend on the processing

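Of 131 genes whose values are printed, 129 passed. Over 19 alternative settings 76 of them passed in each, 53 were lost in at least 1 and none turned its direction. Among the 53, calls were lost in at least 5 settings for Dnmt3a (12), Kmt2d (10), Ccnb1 (9), Slc7a11 (8), Cyp2c44 (8), Serping1 (7), Gpx2 (6), C6 (6), Tbx21 (6), Psmc4 (5), Hspg2 (5) and Cdkn1a (5). Other genes named in the text are outside the 131 and these counts. Those that lost calls in at least 5 settings included Cat (15), Sod2 (13), Sftpa1 (11), Gpihbp1 (11), Ugt2b34 (10), Abcc1 (9), Maff (9), Cdt1 (7), Sftpd (7), Lcn2 (7), Idh1 (6), Ccnd2 (6), Etv5 (6) and Pon1 (6). Median-of-ratios factors, DESeq2 and no filter moved no count of genes changed by BD in C57BL/6J by over 1.5 times. The prior count of 2, 1 of the 19 settings, alters the fold and not the p-value. It could therefore lose no call. Tested against a fold of 1.2, 436 genes passed, 184 higher and 252 lower, 83 of them lower by at least 2-fold. Fitted over all 4 RNA-seq groups, 1298 passed, 489 higher and 809 lower, and 1857 passed in that fit without the library labelled CAST/EiJ BD whose levels lay with C57BL/6J. With each library left out in turn, the count ranged from 1476 to 3573, with 588 to 1450 higher and 888 to 2123 lower, and at 2-fold or more 54 to 77 higher and 85 to 224 lower. The total moved by over 1.5 times without clean-air replicate 3 (1476) and without BD replicates 3 (1572) and 4 (1580). The higher genes moved as far without clean-air replicates 2 (634) and 3 (588) and BD replicates 3 (648) and 4 (616), and the lower genes without clean-air replicates 1 (2123) and 3 (888) and BD replicate 3 (924). Genes lower by at least 2-fold numbered 224 and 85 when clean-air replicates 1 and 3 were left out, 213 when BD replicate 1 was, and 230 without the 3 libraries with squamous markers, a setting chosen after seeing the data. The strain difference passed in 320 genes without title numbers over 100 and in 2507 with DESeq2, against 1641. The cause was not tested for any of these. No paired analysis was possible because the groups compared share no title number. Low genes are limited by depth, since 1 CPM is 10.6 counts in the smallest library.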

Other observations

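Genes of DNA methylation and demethylation passed in 6 of 12 cases, 3 in each direction, with 3 higher and 4 lower without clean-air replicate 1. With all libraries 25% rose and 25% fell, against 6.1% and 8.44% of all tested genes. Without clean-air replicate 1, 25% rose and 33.3% fell, against 8.63% and 12.6%. Uhrf1, which guides maintenance methylation and also follows the cell cycle, rose 1.44-fold (adjusted p = 0.0114), from 5.46–8.44 CPM in clean air to 8.87–10.3 CPM under BD, and Mbd1, a reader of methylated DNA, rose 1.49-fold (adjusted p = 0.00601) with overlap. Tet3, an oxidase of methylcytosine, fell 1.51-fold (adjusted p = 0.00598), and Dnmt3a, a de novo methyltransferase, fell 1.18-fold (adjusted p = 0.0399), both with overlap. Dnmt3a lost its call in 12 of 19 alternatives. Of 27 hypoxia and glycolysis genes 7 rose (25.9%, against 6.1% of all tested genes) and none fell. Without clean-air replicate 1, 7 rose (25.9%, against 8.63%) and 1 fell (3.70%, against 12.6%). Adm, the vasodilator adrenomedullin, rose 2.06-fold (adjusted p = 0.00279), from 2.04–2.86 CPM in clean air to 3.66–6.63 CPM under BD, and Hk2, a hexokinase, rose 1.35-fold (adjusted p = 0.00972), from 27.9–44.2 CPM in clean air to 46.3–55.6 CPM under BD.

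Among 23 complement genes, 1 rose (4.35%, against 6.1% of all tested genes) and 3 fell (13.04%, against 8.44%). Without clean-air replicate 1 the counts were 2 (8.70%, against 8.63%) and 3 (13.04%, against 12.6%). Serping1, the C1 inhibitor, rose 1.14-fold (adjusted p = 0.023), and C6, of the membrane attack complex, fell 1.22-fold (adjusted p = 0.023), from 40.0–51.1 CPM in clean air to 31.6–39.8 CPM under BD. Serping1 lost its call in 7 and C6 in 6 of 19 alternatives. On the elastic fibre and matrix assembly list, whose counts are given above, Plod2 and P4ha2 rose. Plod2, a lysyl hydroxylase, was 1.28-fold higher (adjusted p = 0.00765), and P4ha2, a prolyl hydroxylase subunit, was 1.29-fold higher (adjusted p = 0.00367). Of 8 plasma cell markers 1 rose (12.5%, against 6.1% of all tested genes) and 3 fell (37.5%, against 8.44%). Those that fell included Mzb1, a chaperone of antibody assembly, which fell 1.84-fold (adjusted p = 0.0139). Of 18 dendritic cell markers 4 fell and none rose (4 and 1 without clean-air replicate 1), among them the factor Irf8, which fell 1.61-fold (adjusted p = 0.0202) with overlap. The fallen share was 22.2% in both fits, against 8.44% and 12.6% of all tested genes. The list's mean log2(CPM + 1) was 3.43–3.57 in clean air. BD replicates 1 and 6 lay inside that range, at 3.46 and 3.47, and the other BD libraries lay below it, at 2.76–2.85. Tbx21, a factor of type 1 T and NK cells, fell (log2 fold -0.58, adjusted p = 0.023), from 1.89–2.42 CPM in clean air to 1.24–1.75 CPM under BD. In lipid metabolism, Gpam, the first enzyme of triglyceride synthesis, rose (log2 fold 0.26, adjusted p = 0.00594) without overlap.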
